A study of Mus musculus with 12 samples.

Results

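Lungs of Fra-1-/- mice given bleomycin were compared with lungs of Fra-1-/- mice given PBS, to see which genes the injury moved where Fra-1 is missing. The comparison holds 6 of the 12 arrays of the study. The 3 KOT mice (animals 72, 80 and 81) received 0.075 U of bleomycin in 30 µL of PBS by the intratracheal route, and the 3 KOC mice (animals 53, 55 and 67) received 30 µL of PBS alone. The left lung was taken after 5 days. The labels give all of the mice as female, 2 months old and of mixed C57/129S background, whereas the methods of the study give a higher age. The knockouts carried a floxed Fra-1 allele and Meox2 (Sox2)-Cre, a Cre active in the embryo and not in extra-embryonic tissue, so all cells of the lung are meant to lack Fra-1. The other arrays, used here for the spread and for 1 comparison of responses, came from 3 PBS-treated (WTC) and 3 bleomycin-treated (WTT) Fra-1+/+ mice, which carried the floxed allele without Cre. Every KOC animal number is lower than every KOT number, so anything that goes with animal number cannot be told apart from the treatment.

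RNA was measured on Affymetrix MoGene 1.0ST arrays, 1 array per mouse, and each value is a log2 level of a transcript cluster, a set of probes that in most cases reads 1 gene. The members were all 23410 clusters with a gene symbol out of 35556 on the array, and genes are named here from the 21789 clusters with exactly 1 symbol. A difference of 1 on this scale is a 2-fold change. A log2 fold change is the mean of the 3 KOT mice minus the mean of the 3 KOC mice, given with its standard error (SE) from 1 limma model of all 4 groups, and changes were called where p, adjusted over all 23410 clusters by Benjamini and Hochberg, was under 0.05. Array medians lay between 7.14 and 7.21, and each knockout array correlated with the others of its group at a mean r between 0.988 and 0.991. In 6 of 6 knockout arrays the sex-linked genes went against the labelled sex. Defining transcripts of lung were present in the PBS-treated knockouts, with Cyp2f2 of club cells between 13.83 and 13.87 and the surfactant gene Sftpa1 between 13.56 and 13.61 on a table that runs from 2.32 to 14.67.

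Bleomycin cuts DNA strands, and in the lung it injures alveolar epithelium and capillaries, draws in monocytes and is followed by scarring. Type I and type II interferons induce large gene programmes in exposed cells through STAT proteins and interferon regulatory factors, and damaged DNA activates p53. Fra-1, encoded by Fosl1, is a Fos family subunit of AP-1, a dimeric transcription factor that binds the letters TGACTCA.

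Fosl1 itself was read in every array. Its level was 6.68, 6.26 and 6.56 in the KOC mice and 7.33, 7.32 and 7.28 in the KOT mice. The Fra-1+/+ mice stood at 6.37, 6.76 and 6.86 with PBS and at 7.81, 8.19 and 8.32 with bleomycin. The groups of knockouts did not overlap, and the rise of 0.81 (SE 0.15, adjusted p = 0.00544) passed the test. The probes cannot be placed relative to the deleted part of the gene from the tables used here, so this level checks neither the deletion nor the labels.

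In the Fra-1-/- lung 1736 clusters were higher and 1868 lower with bleomycin, together 3604 of 23410 or 15.4%. Interferon-induced genes, chemokines, macrophage genes and cell division genes were among those that rose, and genes of alveolar epithelium, endothelium, resident fibroblasts and drug metabolism were among those that fell. The rises reached further: 301 clusters rose and 153 fell by at least 2-fold, and 37 rose and 3 fell by at least 4-fold. Among the clusters the test chose, the 3 KOT mice lay outside the range of the 3 KOC mice in 1710 that rose and 1845 that fell. That choice favours groups that stand apart, so these counts are no further evidence of a response. The median log2 fold change over all clusters was 0.02, with a median SE of 0.10. Of the called clusters 48.2% were higher. When the array medians were set equal 1341 were higher and 2408 lower, so the balance of rises and falls depends on the scaling. The calls also lean on single mice: without KOC 53, KOC 55, KOT 72 or KOT 81 in turn, 974, 1028, 945 and 908 clusters were higher and 1099, 1141, 963 and 946 lower.

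The 10 genes with the largest rises included 4 chemokines. Cxcl10, an interferon-induced chemokine that attracts Cxcr3-bearing lymphocytes, lay at 7.04, 7.35 and 7.71 in KOC and at 11.96, 9.95 and 12.33 in KOT, a rise of 4.05 (SE 0.61, adjusted p = 0.00172) or 16.6-fold. Cxcl9, a second Cxcr3 ligand, went from 7.01, 7.12 and 8.62 to 10.81, 10.13 and 11.43, and Irf7, the regulator that amplifies type I interferon, from 8.50, 8.74 and 8.67 to 11.73, 10.21 and 12.07. All KOT mice stood above all KOC mice in these 3 genes, which the rule that picked the 10 required. KOT 80 stood lowest of the treated mice in each. Sprr1a, a small proline-rich protein of stressed epithelium, went the other way among the treated mice, at 10.84, 11.21 and 10.45 against 6.60, 7.94 and 7.61, a rise of 3.45 (SE 0.30, adjusted p = 1.7e-04) in which KOT 80 was highest. Chl1, a neural adhesion molecule of the L1 family, rose 7.69-fold from 5.13, 5.57 and 5.27 to 8.54, 7.52 and 8.74. Timp1, Ccl2, Saa3, Ccl7 and C3ar1 completed the 10, with log2 fold changes from 2.64 to 3.62.

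**Figure D1:**
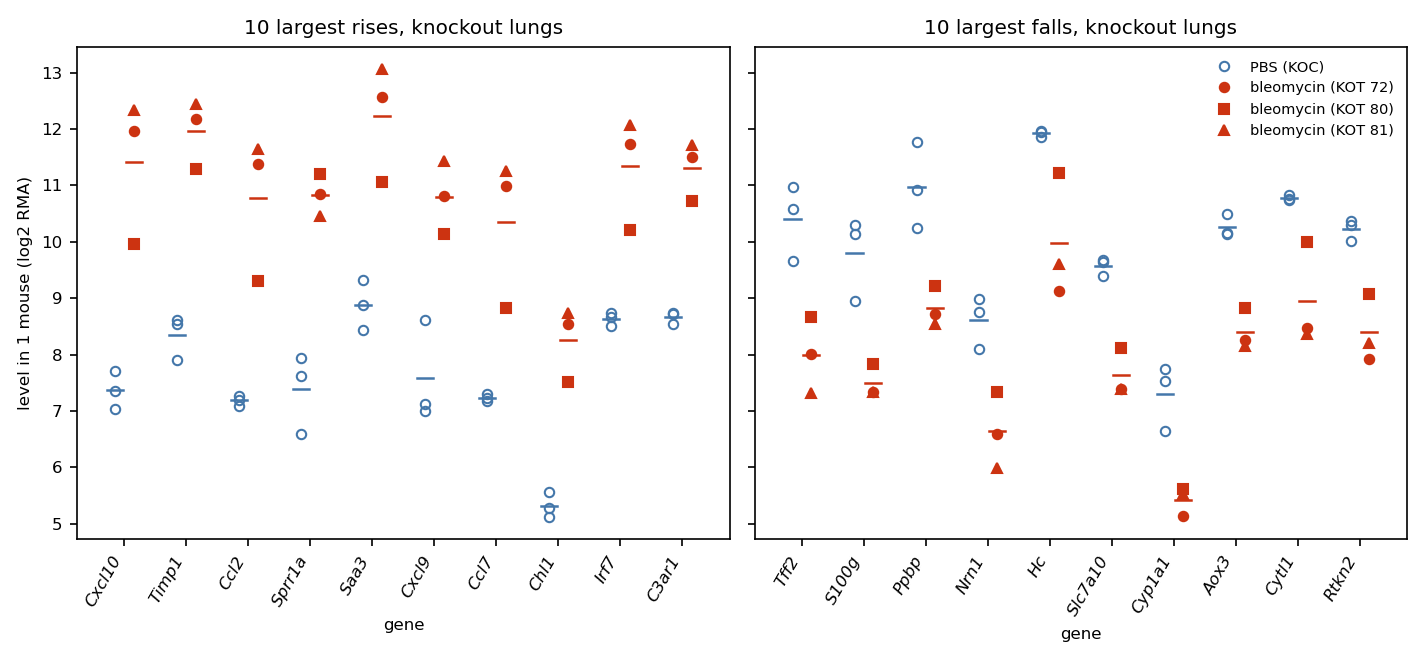
Log2 level of each knockout mouse for the 10 genes with the largest rises (left) and the 10 with the largest falls (right) among called genes whose groups did not overlap, with open circles for PBS-treated mice, filled symbols for bleomycin-treated mice and bars for group means. In 9 of the 10 rises, all but Sprr1a, the square of KOT 80 is the lowest of the treated mice.

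The promoters of Cxcl10, Sprr1a and Cxcl9 hold the letters that AP-1 binds, and they are shown because Fra-1 is an AP-1 subunit that these mice lack. Printing was limited to 3 genes with a match, taken from the largest rise down, so genes with smaller rises may hold it too. The sequences are from RefSeq for the build GRCm38.p6, 250 bases before to 50 after the annotated start, printed 5′ to 3′ on the gene's strand with the match in capitals, as TGACTCA or as its reverse complement. In Cxcl10 (chr5:92348840-92349139, minus strand) the match begins at -74 from the start, in Sprr1a (chr3:92485832-92486131, minus strand) the first of 2 matches begins at -146, and in Cxcl9 (chr5:92328030-92328329, minus strand) at 31 after it.
Cxcl10: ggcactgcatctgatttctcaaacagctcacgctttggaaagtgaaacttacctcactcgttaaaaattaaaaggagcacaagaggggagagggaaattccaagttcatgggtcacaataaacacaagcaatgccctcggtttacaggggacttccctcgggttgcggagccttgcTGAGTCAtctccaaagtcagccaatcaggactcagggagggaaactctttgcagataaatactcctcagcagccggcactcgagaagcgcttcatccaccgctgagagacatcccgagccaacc
Sprr1a: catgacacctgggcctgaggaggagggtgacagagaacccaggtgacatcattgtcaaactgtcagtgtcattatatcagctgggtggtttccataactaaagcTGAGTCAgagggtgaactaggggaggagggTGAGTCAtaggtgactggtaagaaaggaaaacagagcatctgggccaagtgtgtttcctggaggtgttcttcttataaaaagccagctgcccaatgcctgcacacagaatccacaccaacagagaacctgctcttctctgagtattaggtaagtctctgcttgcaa
Cxcl9: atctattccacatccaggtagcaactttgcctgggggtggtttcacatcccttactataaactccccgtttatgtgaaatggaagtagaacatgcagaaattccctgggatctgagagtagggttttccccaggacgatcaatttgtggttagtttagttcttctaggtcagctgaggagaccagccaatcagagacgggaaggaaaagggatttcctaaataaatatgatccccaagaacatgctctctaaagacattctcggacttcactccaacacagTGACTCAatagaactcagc
TGACTCA on either strand stood in the promoters of 7.3% of 1209 genes that rose and 3.7% of 1282 that fell, against 5.4% of all 15563 tested genes with a promoter in the table and 5.2% of the 32851 promoters in it.

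The interferon element core GAAANNGAA, with any base at N, was searched in the same way. It stood in the promoters of 13.1% of the genes that rose and 7.3% of those that fell, against 9.2% of all tested genes with a promoter and 8.6% of all promoters. Among type I interferon-stimulated genes 9 of 15 held it, and 4 of 5 interferon-gamma GTPases. Saa3, an acute-phase protein that rose 10.2-fold, is shown as a large rise with this match (chr7:46715627-46715926, minus strand, match at -125 in capitals). The Cxcl10 and Cxcl9 promoters printed with the AP-1 matches hold the core as well, there left in lower case.
Saa3: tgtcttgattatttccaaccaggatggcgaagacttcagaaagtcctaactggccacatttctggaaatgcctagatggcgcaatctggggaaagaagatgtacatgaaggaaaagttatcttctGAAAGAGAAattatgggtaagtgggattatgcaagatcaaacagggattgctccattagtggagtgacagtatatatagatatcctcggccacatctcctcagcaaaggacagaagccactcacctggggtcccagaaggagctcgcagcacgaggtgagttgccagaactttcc

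Among the 10 largest falls were products of airway and alveolar epithelium, platelets and resident mesenchyme. Ppbp, the platelet basic protein chemokine, went from 11.77, 10.91 and 10.25 in KOC to 8.72, 9.22 and 8.54 in KOT, a fall of 4.44-fold. Hc, the gene of complement component C5, lay at 11.87, 11.96 and 11.95 in KOC and at 9.13, 11.22 and 9.61 in KOT (log2 fold change -1.94, SE 0.43, adjusted p = 0.0108). KOT 80 thus lost far less Hc than KOT 72 and KOT 81. It too lay below all 3 controls, which the rule that picked the 10 required. The calls of Hc and Tff2 were lost without KOT 81. Slc7a10, an amino acid transporter, went from 9.64, 9.68 and 9.39 to 7.39, 8.12 and 7.39. Rtkn2, a gene of alveolar type 1 cells, went from 10.29, 10.02 and 10.37 to 7.92, 9.07 and 8.20. Tff2, S100g, Nrn1, Cyp1a1, Aox3 and Cytl1 were the others, with log2 fold changes from -2.41 to -1.83.

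KOT 80 stood apart from the other treated mice across much of the response. It was the treated mouse nearest to the KOC mean in 65.3% of the 1736 clusters that rose and in 81.2% of the 1868 that fell. Its median difference from the KOC mean over the clusters that rose was 0.44, against 0.56 in KOT 72 and 0.60 in KOT 81, and over the clusters that fell it was -0.38, against -0.58 and -0.59. These are values of the clusters the test chose and carry no test of their own. Without KOT 80, 1800 clusters were higher and 2145 lower, and these included 1480 and 1719 of the clusters called with all mice.

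The gap was wide in some groups of genes and missing in others. Each gene list is summarised by the median, over its members, of a mouse's level minus the KOC mean. For type I interferon-stimulated genes this was 0.65 in KOT 80 against 1.88 and 2.13 in KOT 72 and KOT 81, and for genes of alveolar type 2 cells it was -0.27 against -0.85 and -0.65. For mitosis it was 0.79 against 0.81 and 0.89, for DNA replication 0.52 against 0.49 and 0.44, and for genes of transitional injured epithelium 0.67 against 0.65 and 0.53. KOT 80 was nearest to the controls in 22 of 22 interferon-stimulated genes that rose and in 12 of 12 alveolar type 2 genes that fell, but in 9 of 24 mitosis genes, 9 of 25 replication genes and 2 of 10 transitional epithelium genes that rose.

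**Figure D2:**
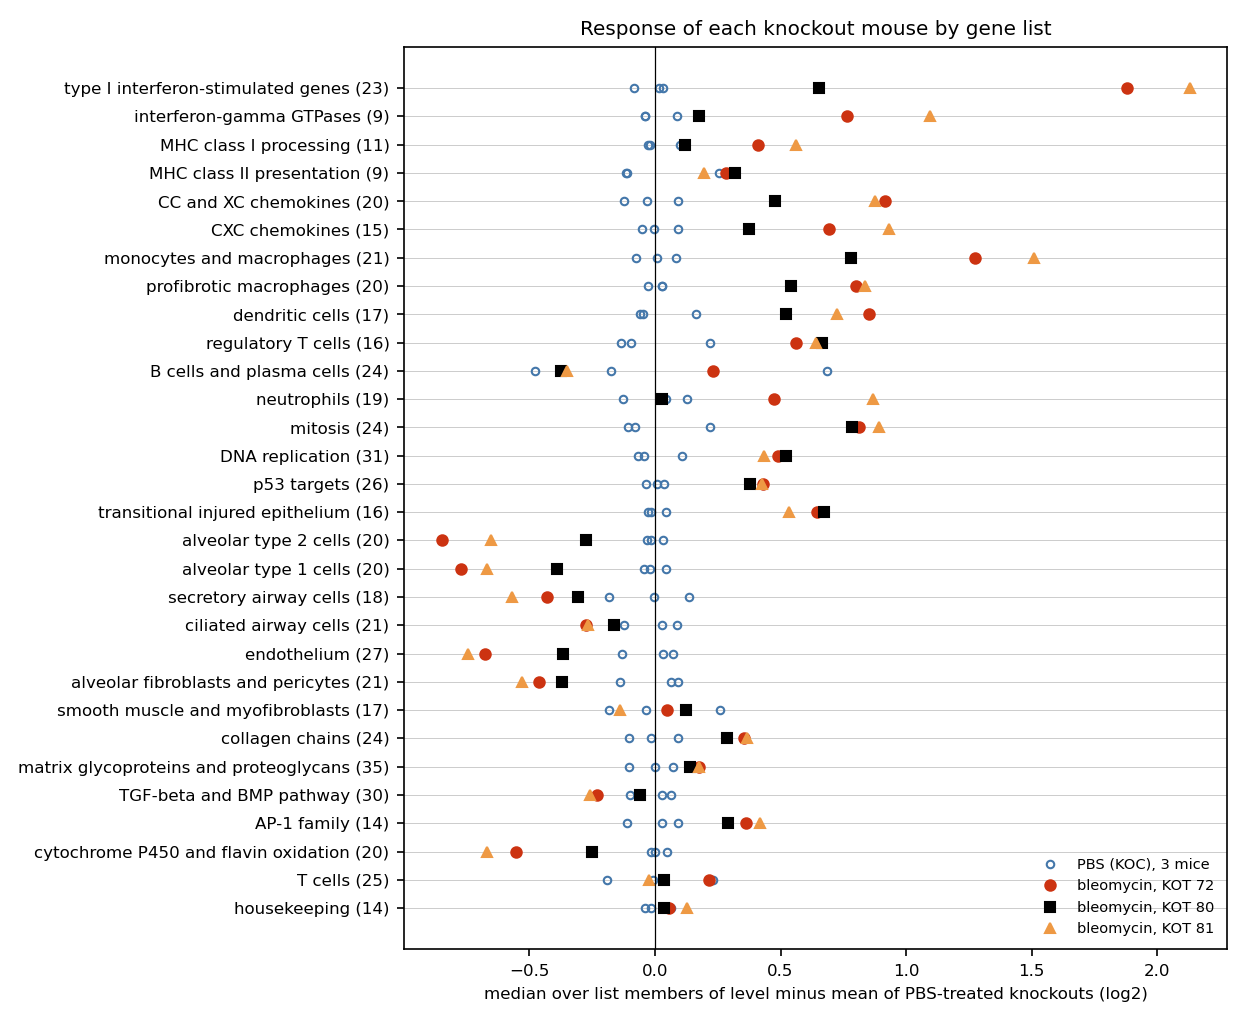
Median over the members of each gene list (number measured in brackets) of the log2 level in 1 mouse minus the mean of the 3 PBS-treated knockouts, with open circles for the PBS-treated mice and filled symbols for the bleomycin-treated mice. The black square of KOT 80 lies well inside the other treated mice for the interferon, chemokine, monocyte and macrophage, alveolar type 1 and type 2 and endothelium lists, and close to them for mitosis, DNA replication, p53 targets, transitional epithelium and regulatory T cells.

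Lists are given below by how many measured members passed the test, beside 7.42% of all clusters higher and 7.98% lower. In bulk lung RNA, fewer cells of a type and less RNA per cell cannot be told apart. Of 23 measured type I interferon-stimulated genes 22 rose and 0 fell, with a median log2 fold change of 1.60. Zbp1, a sensor of nucleic acid that can set off necroptosis, went from 7.40, 7.76 and 8.09 to 10.65, 9.12 and 10.91, a 5.56-fold rise. Ifi27l2a, a small interferon-induced membrane protein, rose 3.77-fold, and Bst2, the tether that holds budding viruses to the cell, rose 2.33-fold from 8.42, 8.58 and 8.54 to 9.98, 9.15 and 10.07. In Bst2 no treated mouse overlapped a control. The number that passed was 13 without KOT 72, 14 without KOT 81 and 23 without KOT 80.

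Targets of interferon gamma moved in the same direction with less certainty. Of 9 GTPases induced by interferon gamma 6 rose and 0 fell, with a median of 0.66. Iigp1, which attacks vacuoles of intracellular parasites, rose 3.66-fold from 7.40, 7.58 and 7.86 to 9.79, 8.57 and 10.09, and Gbp5, a guanylate-binding protein, rose 2.76-fold from 6.60, 6.59 and 7.19 to 8.48, 7.40 and 8.89, a call lost without KOC 53, KOC 55, KOT 72 or KOT 81. The count is not stable to single mice: 1 passed without KOC 53, KOT 72 or KOT 81, 2 without KOC 55, and 9 without KOT 80. Of 11 genes of MHC class I processing 6 rose and 0 fell. They included the peptide transporter Tap1 (log2 fold change 1.26, SE 0.27), the immunoproteasome subunit Psmb8 (0.88, SE 0.18) and Nlrc5, the class I transactivator (0.67, SE 0.14). For MHC class II 1 of 9 passed, the protease Ctss, at 10.55, 10.42 and 10.69 in KOC and 11.71, 11.54 and 11.87 in KOT. The class II transactivator Ciita did not pass, at 8.22, 8.26 and 8.87 in KOC and 9.06, 8.94 and 8.97 in KOT (adjusted p = 0.126), although its groups did not overlap, and it passed without KOC 67.

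Chemokines of both main families rose. Of 20 CC and XC chemokines 9 rose and 1 fell, and of 15 CXC chemokines 7 rose and 2 fell. Ccl17, a ligand of Ccr4 made by dendritic cells, went from 8.91, 8.12 and 9.54 to 10.90, 11.79 and 10.85, a 5.01-fold rise that was largest in KOT 80. Ccl22, the other Ccr4 ligand, went from 6.73, 6.39 and 6.84 to 8.01, 8.02 and 7.71, a 2.39-fold rise with the 3 treated mice close together. Ccl9, a macrophage chemokine, rose 3.05-fold. Cx3cl1, the membrane-bound fractalkine counted with the first list, fell (-0.65, SE 0.14), and Cxcl15, the lung-restricted lungkine, fell by 0.42 alongside Ppbp. The Cxcr3 ligand Cxcl11 rose by 1.00 (SE 0.25, adjusted p = 0.018) with KOT 80 at 5.80, barely above the highest control at 5.64. The call of Cxcl11 was lost without KOC 53, KOC 55, KOT 72 or KOT 81, and that of Cxcl15 without KOC 53 or KOT 72. Ccl19, which guides cells to lymphoid tissue, did not pass (0.72, SE 0.45, adjusted p = 0.322).

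Of 20 chemokine receptors 8 rose and 1 fell. Ccr2, the receptor that carries monocytes out of the marrow, went from 8.08, 7.83 and 7.99 to 9.28, 9.06 and 9.40. Ccr8, a receptor of regulatory T cells, went from 5.38, 5.36 and 5.71 to 6.47, 6.40 and 6.72, a rise of 1.05 (SE 0.15, adjusted p = 0.00154). In both genes all treated mice, KOT 80 among them, lay well above all controls. Ackr1, the chemokine-binding receptor of venules, rose 2.28-fold and Ccr9 rose 2.10-fold. Ccr4 did not pass (0.51, SE 0.33, adjusted p = 0.358), and Cxcr4 was the receptor that fell (-0.42, SE 0.10). With KOC 53, KOT 72 or KOT 81 left out 5 receptors rose in place of 8, Ccr9 not among them, and Cxcr4 was not called without KOC 55 or KOT 72.

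Among 28 cytokines and their receptors 10 rose and 0 fell, 6 without KOC 55, KOT 72 or KOT 81. Lif, an Il6-family cytokine, lay at 6.20, 6.42 and 5.99 in KOC and at 7.91, 7.77 and 7.73 in KOT, a 3.03-fold rise of the same size in every treated mouse. Receptors rose with it: Osmr, the oncostatin M receptor, by 0.80, Tnfrsf1b, the second TNF receptor, by 0.98, and Il4ra, shared by Il4 and Il13, by 0.73. Of 19 acute-phase and mucosal defence genes 7 rose and 3 fell, with 4 rises without KOC 55 or KOT 72, 1 fall without KOC 53 or KOC 67 and 0 without KOT 72 or KOT 81. Serpina3n, a protease inhibitor, went from 11.31, 11.17 and 11.18 to 13.20, 12.73 and 13.29, and Saa4 rose 4.18-fold. The members that fell were Itih4, Chil1 and Pigr, the transporter of IgA across epithelium, at -1.35, -0.71 and -1.54, and Pigr was also not called without KOT 80 or WTT 160. Of 18 complement genes 7 rose and 2 fell. C1qa, C1qb and C1qc, the chains of C1q, rose 4.28-fold, 3.39-fold and 3.62-fold, and the members that fell, Hc and C6, belong to the terminal pathway. The call of C6 was lost without KOC 53, KOC 55, KOT 72 or KOT 81.

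**Figure D3:**
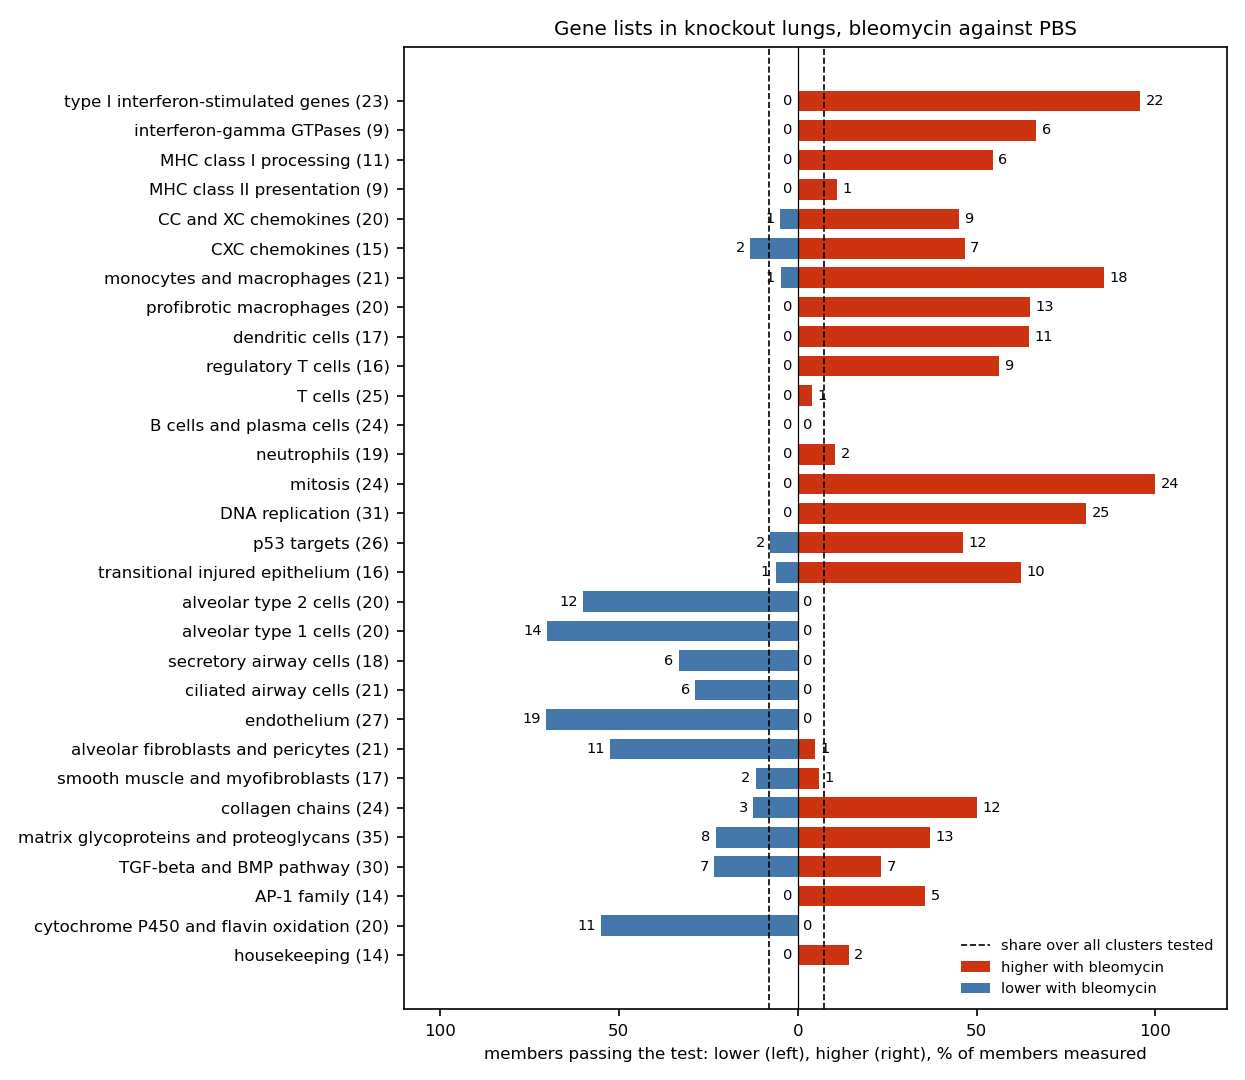
Share of the measured members of each gene list (number in brackets) that passed the test and were higher (right, red) or lower (left, blue) in bleomycin-treated than in PBS-treated knockouts, with the counts at the bar ends and dashed lines at 7.42% higher and 7.98% lower for all clusters. Mitosis with 24 of 24 and type I interferon-stimulated genes with 22 of 23 reach furthest right, and endothelium with 19 of 27 and alveolar type 1 cells with 14 of 20 furthest left.

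Of 21 monocyte and macrophage genes 18 rose and 1 fell, with a median of 1.18. Fcgr3, an IgG receptor, rose by 1.23 with KOT 80 at 9.61, above the controls at 8.62, 8.65 and 8.91. The member that fell was Lyz2, which alveolar type 2 cells also express (-0.28, SE 0.08, adjusted p = 0.0311), and that call was lost without KOC 53, KOC 55, KOT 72 or KOT 81. Of 20 genes of profibrotic macrophages 13 rose and 0 fell. Gpnmb, a glycoprotein of lipid-handling macrophages, went from 8.43, 7.76 and 8.10 to 10.26, 9.76 and 10.14, a 3.88-fold rise. Resident alveolar macrophage genes were divided, with 4 of 16 higher and 2 lower, 2 higher without KOC 55, and 4 lower without KOT 80 but 1 lower without KOC 53, KOC 55, KOT 72 or KOT 81. Marco, a scavenger receptor, rose from 6.19, 6.37 and 6.77 to 6.95, 7.39 and 7.46, while Fabp1, a fatty acid binding protein, fell from 6.43, 6.30 and 7.13 to 4.87, 5.42 and 4.53.

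Dendritic cell genes rose in 11 of 17 cases with 0 lower. The count was 6 when KOC 53, KOC 55, KOT 72 or KOT 81 was left out. Several of the 11 are also given elsewhere: Bst2 is an interferon-stimulated gene, Ccl17 and Ccl22 are chemokines and Batf3 is of the AP-1 family. Another is in the regulatory T cell list. Fscn1, the actin bundler of mature dendritic cells, rose 2.42-fold from 9.03, 8.93 and 9.22 to 10.29, 10.20 and 10.50. Of 16 genes of regulatory T cells 9 rose and 0 fell. Foxp3, which defines these cells, went from 7.52, 7.50 and 7.68 to 8.14, 8.24 and 8.22 (0.64, SE 0.09, adjusted p = 0.00124), and Tnfrsf18 went from 7.29, 7.43 and 7.53 to 8.12, 8.13 and 8.16. In both genes KOT 80 was level with the other treated mice. Of 25 T cell genes in general 1 rose, the checkpoint receptor Ctla4, which the regulatory list also holds, and 0 fell. That call was lost without KOC 53, KOC 55, KOT 72 or KOT 81. Cd8a, of cytotoxic T cells, did not pass (adjusted p = 0.236).

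Of 22 NK and cytotoxic genes 2 rose, the chemokine Xcl1 and the transcription factor Runx3, and 1 fell, the receptor Klra8, which did not pass without KOC 55, KOC 67, KOT 72 or KOT 81. Xcl1 went from 6.37, 6.34 and 6.69 to 7.76, 7.0 and 7.47. The killing genes Gzma and Prf1 lay at -0.66 and -0.26 without passing (adjusted p = 0.0552 and 0.264), and Gzma passed without WTT 160 or WTT 164, with equal array medians and with cyclic loess. Of 24 B cell and plasma cell genes 0 passed in either direction, and their spread among controls was wide: the list median was 0.68 above the KOC mean in KOC 67 and 0.48 below it in KOC 53. Jchain, the joining chain of IgA and IgM, lay at 10.06, 9.92 and 12.11 in KOC, so that KOC 67 exceeded every treated mouse at 11.37, 11.01 and 10.74. Neutrophil genes were no clearer. Of 19, 2 rose, Mmp8 and Lrg1, of which Lrg1 was not called without any 1 of the knockout mice or WTC 158, WTT 161 or WTT 164, and Ngp, a granule protein, stood at 6.57, 6.51 and 6.06 in KOC and 6.06, 5.95 and 6.0 in KOT. Clec4e, a receptor of activated myeloid cells, lay at 8.77, 7.29 and 10.07 in KOT above 6.56 to 6.89 in KOC, and with that spread it did not pass (adjusted p = 0.11), though it passed without KOT 80 or WTT 160. Between 0 (without KOC 55, KOT 72 or KOT 81) and 6 (without WTT 160) neutrophil genes passed as single arrays were left out.

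Cell division rose in all 3 treated mice alike. Of 24 mitosis genes 24 rose and of 31 DNA replication genes 25 rose, with 0 lower in either list and medians of 0.85 and 0.48. Birc5, survivin of the chromosomal passenger complex, went from 6.78, 6.51 and 7.01 to 7.65, 7.55 and 7.63. Ube2c, a ubiquitin-conjugating enzyme of mitotic exit, went from 7.87, 7.85 and 8.16 to 8.87, 8.94 and 8.91. Aurka, a spindle kinase, went from 6.94, 6.93 and 7.08 to 7.61, 7.61 and 7.60. The treated mice lay close together in these 3 genes, well above the controls. Ccne1 and Cdt1, which start replication, rose by 0.83 and 0.68, and Rrm1, a subunit of ribonucleotide reductase, rose by 0.72. The mitosis count was 10 without KOC 53, 11 without KOC 55 or KOT 81 and 15 without KOT 72. The replication count was 13, 14, 15 and 12 without KOC 53, KOC 55, KOT 72 and KOT 81, and 9 by the local-pooled-error test of the study's methods at an adjusted p under 0.01.

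Of 26 measured targets of p53, the factor activated by damaged DNA, 12 rose and 2 fell. Gtse1, a regulator of p53 in the G2 phase, went from 6.59, 6.56 and 6.64 to 7.87, 7.71 and 7.80 (1.19, SE 0.07, adjusted p = 2.1e-05). Sesn2, a stress-induced brake on mTOR, went from 8.35, 8.38 and 8.42 to 9.44, 9.42 and 9.32, and Ccng1, a cyclin of the DNA damage response, from 11.48, 11.54 and 11.30 to 12.33, 12.38 and 12.27. In each of these KOT 80 lay close to the other treated mice. The members that fell were Rrm2b, which supplies nucleotides for repair (-0.52, SE 0.09), and the repair factor Xpc (-0.43, SE 0.08). The count was 11 to 13 with any array left out.

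Epithelial genes split by state. Of 20 genes of alveolar type 2 cells 12 fell and 0 rose, with a median of -0.60, and of 20 of alveolar type 1 cells 14 fell and 0 rose, with a median of -0.61. Nkx2-1, the master transcription factor of lung epithelium, went from 11.23, 11.21 and 11.13 to 10.34, 10.76 and 10.29, and Sftpa1 fell to 12.65, 13.14 and 12.69. Hopx, a type 1 cell transcription cofactor, was 2.01-fold lower, and Limch1 and Clic5 were 1.81-fold and 1.74-fold lower. In Limch1 the treated mice lay close together at 10.31, 10.45 and 10.40. Pdpn and Krt7 did not pass, at 0.11 each (adjusted p = 0.423 and 0.512). The type 2 count was 7 without KOT 81, 8 without KOT 72 and 17 without KOT 80, and the type 1 count 10 to 16.

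The transitional state of injured alveolar epithelium, marked by keratins and claudin 4, moved the opposite way. Of its 16 genes 10 rose and 1 fell. Cldn4, a tight junction protein, went from 7.80, 7.86 and 8.14 to 10.49, 10.04 and 9.92, a 4.65-fold rise (adjusted p = 6.2e-05). Tnip3, an inhibitor of NF-kB signalling, went from 6.38, 6.88 and 6.75 to 8.36, 8.69 and 8.36, and Krt18 from 10.70, 10.71 and 10.71 to 11.48, 11.49 and 11.30. These rises were as large in KOT 80 as in KOT 81. The member that fell was Cldn18, the claudin of healthy alveoli (-0.64, SE 0.16), a call lost without KOC 53, KOC 55, KOT 72 or KOT 81. The count was 10 or 11 with any array left out.

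Of 18 secretory airway genes 6 fell and 0 rose, among them Cyp2f2 at 12.99, 13.33 and 12.77 in the treated mice and Chad, a matrix protein, which was 3.41-fold lower. Of 21 genes of ciliated cells 6 fell, 3 without KOT 81, and 0 rose, with a median of -0.22. Dnaic1, an axonemal dynein chain, went from 8.22, 8.22 and 8.47 to 7.51, 7.78 and 7.54. Foxj1, the master regulator of motile cilia, lay at 9.19, 9.05 and 9.29 in KOC and 9.29, 9.34 and 9.26 in KOT and did not pass (adjusted p = 0.427).

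Of 27 genes of endothelium 19 fell and 0 rose, with a median of -0.61, and 11 or 12 fell when KOC 53, KOC 55, KOT 72 or KOT 81 was left out. Aplnr, the apelin receptor, went from 10.33, 10.05 and 9.91 to 8.56, 8.94 and 8.04, a log2 fold change of -1.58. Ednrb, an endothelin receptor of capillaries, was 2.26-fold lower, and Pecam1, common to all endothelium, went from 11.56, 11.54 and 11.50 to 10.99, 11.01 and 10.96. Pecam1 was at nearly the same level in every treated mouse. Vwf, of larger vessels, did not pass at 0.40 (SE 0.13, adjusted p = 0.0574). The adhesion molecule Vcam1 rose by 0.38 (SE 0.11, adjusted p = 0.0425), a call lost without KOC 53, KOC 55, KOT 72, KOT 81, WTC 157 or WTT 161. Vwf passed without WTC 76 or WTT 164.

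Of 21 genes of alveolar fibroblasts and pericytes 11 fell and 1 rose. Itga8, an integrin chain, went from 11.34, 11.35 and 11.14 to 9.97, 10.18 and 9.60, and Npnt, its ligand nephronectin, from 12.41, 12.45 and 12.07 to 11.36, 11.78 and 11.34. The member that rose was Cspg4, the NG2 proteoglycan of pericytes (0.29, SE 0.07, adjusted p = 0.0169), though not without KOC 53 or KOT 72. Of 17 smooth muscle and myofibroblast genes 1 rose and 2 fell. The rise was lost without any 1 knockout mouse other than KOT 80, and the falls numbered from 0 without KOT 81 to 3 without KOC 67. Acta2, smooth muscle actin, lay at 11.54, 11.83 and 11.30 in KOC and 11.88, 11.78 and 11.66 in KOT, with overlapping groups (0.21, SE 0.15, adjusted p = 0.379).

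Of 24 collagen chains 12 rose and 3 fell. Col1a1, the main chain of scar collagen, went from 10.52, 10.80 and 10.29 to 11.62, 11.31 and 11.64, a 1.98-fold rise (adjusted p = 0.00263). Col3a1 went from 9.63, 9.96 and 9.52 to 10.71, 10.41 and 10.76, Col5a2 rose 1.98-fold and Col1a2 1.74-fold. The 3 that fell, Col4a3, Col4a4 and Col4a5, are the chains that form 1 basement membrane network together, at -0.85, -0.74 and -0.40, and Col4a5 was called neither by the local-pooled-error test nor without any 1 knockout mouse other than KOT 80. Of the 24, 5 rose by the local-pooled-error test. Among 16 genes of collagen modification 8 rose and 1 fell, and 5 rose when any knockout mouse but KOT 80 was left out. Lox, which cross-links collagen, went from 10.10, 9.72 and 9.45 to 11.20, 10.88 and 11.49, and P4ha3, a proline hydroxylase, rose 2.70-fold.

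Of 35 matrix glycoproteins and proteoglycans 13 rose and 8 fell. Tnc, the injury matrix protein tenascin C, went from 8.33, 8.54 and 8.25 to 10.98, 10.29 and 10.87, a 5.06-fold rise. Vcan, the proteoglycan versican, rose 4.42-fold, and Fn1, fibronectin, rose 3.24-fold from 11.53, 11.37 and 10.96 to 13.06, 12.81 and 13.07. Among the falls were Lama3, a laminin chain of epithelial basement membrane, which was 2.98-fold lower, and Ltbp4, which holds latent TGF-beta in elastic fibres and was 2.08-fold lower. Postn, periostin, fell by 0.38 from 11.71, 11.64 and 11.52 to 11.23, 11.26 and 11.24. Without KOT 72 7 members rose in place of 13. Of 19 metalloproteinases and Timps 9 rose and 1 fell. Mmp14, which anchors collagen breakdown at the cell surface, rose 2.15-fold and Mmp13, a collagenase, 2.36-fold, beside Timp1, a tissue inhibitor of metalloproteinases, at 12.3-fold. The member that fell was Mmp11 (-0.71, SE 0.13).

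The TGF-beta and BMP pathway held 7 rises and 7 falls among 30 genes. Tgfb1 rose by 0.32 (SE 0.09, adjusted p = 0.0375), from 10.43, 10.40 and 10.35 to 10.82, 10.57 and 10.74, and was called neither with equal array medians nor without any 1 knockout mouse other than KOT 80. Fst, follistatin, a secreted antagonist of activins, rose 3.69-fold from 6.95, 7.01 and 7.15 to 9.02, 8.35 and 9.39. Tgfbi, an extracellular protein induced by TGF-beta, rose 2.84-fold. The BMP ligand Bmp2 went from 7.30, 7.31 and 7.22 to 6.47, 6.53 and 6.34, and Bmp3, Bmp5 and Bmp6 fell by 0.91, 0.71 and 1.14. Bmp4, the other BMP ligand of the list, did not pass (-0.36, adjusted p = 0.268). The number of rises was 4 without KOC 53, KOC 55, KOT 72 or KOT 81. Of 17 plasminogen and coagulation genes 7 rose and 2 fell. Plau, the urokinase plasminogen activator, rose 2.63-fold and Tfpi2 2.39-fold, while Thbd, thrombomodulin of the vessel wall, fell by 0.76, a call lost without KOC 55, KOC 67, KOT 72 or KOT 81. The rises numbered 3 without KOT 81 and 4 without KOC 55, KOC 67 or KOT 72.

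The AP-1 family is the family of the missing subunit. Of its 14 measured genes 5 rose and 0 fell: Fosl1, Atf3, Junb, Fos and Batf3. Atf3, a stress-induced repressor, went from 7.61, 8.09 and 7.69 to 9.37, 8.92 and 9.28, a 2.62-fold rise, and Junb from 8.71, 8.72 and 8.45 to 9.60, 9.18 and 9.60. Fos lay at 7.0, 7.50 and 7.05 in KOC and 7.80, 7.63 and 8.0 in KOT (0.63, SE 0.16, adjusted p = 0.0225), and did not pass without KOC 53, KOC 67, KOT 72 or KOT 81. Fosl2, which encodes the related Fra-2, did not pass (0.40, SE 0.21, adjusted p = 0.234), and neither did Jun (-0.08, SE 0.11, adjusted p = 0.676) or Jund (-0.23, SE 0.09, adjusted p = 0.101).

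Many enzymes of drug metabolism fell. Of 20 cytochrome P450 and flavin oxidation genes 11 fell, 7 without KOT 72 or KOT 81, and 0 rose. The highest log2 fold change among them, which did not pass, was 1.18 (limma adjusted p = 0.0546). Without KOT 80 or WTT 160, 2 members rose, and 1 rose without WTT 164. Cyp1a1, an enzyme induced by aromatic hydrocarbons, went from 7.74, 7.52 and 6.65 to 5.13, 5.62 and 5.54, and Aox3, an aldehyde oxidase, from 10.16, 10.50 and 10.14 to 8.26, 8.83 and 8.14. Of 23 Nrf2 and glutathione genes 7 rose and 5 fell. Gclc, which makes the first step of glutathione synthesis, rose by 0.76 (SE 0.15) and was highest in KOT 80, at 12.13 over controls at 11.23, 11.03 and 11.40, whereas catalase, Cat, went from 12.43, 12.35 and 12.23 to 11.36, 11.73 and 11.30. The glutathione transferase Gstm1 fell by 0.94. Without KOT 72 or KOT 81 4 members rose in place of 7 and 3 fell in place of 5, and 3 fell without KOC 53.

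Of 19 hypoxia and glycolysis genes 7 rose and 2 fell. The lactate dehydrogenase gene Ldha rose by 0.57, to 12.06, 12.06 and 12.15, and Vegfa, a growth factor that alveolar type 1 cells supply to capillaries, fell by 0.61. Of 16 measured circadian clock genes 2 rose and 2 fell, among the falls Nr1d1, which was 2.35-fold lower. With 1 array left out the rises numbered 2 or 3 and the falls 1 to 3. Of 14 housekeeping genes 2 rose, Gusb by 0.70 and Pgk1 by 0.62, and 0 fell. Actb, Hprt and Tbp lay at 0.12, 0.18 and -0.18 without passing, with a list median of 0.06 beside 0.02 for all clusters. Cardiac muscle genes differed among the controls: their median was 0.61 below the KOC mean in KOC 53 and 0.58 above it in KOC 55. Of 19 measured 1 rose and 1 fell, 5 fell without KOC 53, and the part of such tissue in other results was not tested.

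The study compiled a list of transcript clusters that it gave as particular to the response of the knockouts. Of 153 of these among the clusters tested, 70 rose and 47 fell. The list was chosen on these same arrays, so it is not independent evidence of direction. In Fra-1+/+ lungs 41 of its members passed as higher and 41 as lower by limma at an adjusted p under 0.05. Over all 23410 clusters 2386 and 2641 did. The study's list came from local pooled error at a false discovery rate of 0.01, so the thresholds are unlike. Pidd1, which joins p53 to caspase 2, went from 6.86, 6.82 and 6.91 to 7.62, 7.68 and 7.46, and Itgb4, an integrin of epithelial anchorage, from 8.67, 8.55 and 8.52 to 9.16, 9.17 and 9.18. Kazald1, a secreted protein with an IGF-binding domain, went from 7.15, 7.18 and 7.08 to 6.27, 6.51 and 6.08, and Ptprk, a receptor phosphatase, from 10.43, 10.56 and 10.33 to 9.76, 9.72 and 9.71. In these 4 genes the groups stood clear of each other. Snai2, a transcription factor of mesenchymal transition, fell by 0.81, and Alox12, a platelet lipoxygenase, fell by 0.85. Both calls were lost without KOC 53 or KOC 55, and that of Alox12 without KOT 81. Hpse, heparanase, was not called, with KOT 80 at 8.38 inside the control range of 8.20 to 8.42 and the others at 9.24 and 9.29 (0.68, SE 0.23, adjusted p = 0.0686), and passed without KOT 80 or WTC 157. By RT-qPCR the study reported a significant rise of Hpse in bleomycin-treated over PBS-treated knockouts, and of Gclc, Runx3, Xcl1 and Cxcl11. Its RT-qPCR rises of Ccr8 and Ccl22, both called here, were not significant. For Marco and Snai2 it reported significant RT-qPCR changes in both genotypes. Without KOC 53, KOC 55, KOT 72 or KOT 81, 36 to 38 of the list rose and 28 to 31 fell.

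Whether the knockouts answered differently from Fra-1+/+ lungs was tested as the KOT minus KOC change minus the WTT minus WTC change. This difference passed for 0 of 23410 clusters (0%) by limma, the lowest adjusted p being 0.117, while 1193 clusters (5.1%) had an unadjusted p under 0.05. Without WTC 76 it passed for 1 cluster, Abca17, and without KOC 67 for 3 clusters that share the symbols Gm2411, Cldn34c4 and Cldn34c1. The median SE of this difference was 0.14. In the Fra-1+/+ lungs 2386 clusters rose and 2641 fell. Of the 1736 clusters that rose in the knockouts 1705 also had a log2 fold change above 0 in Fra-1+/+ lungs, where 1314 passed, and of the 1868 that fell 1855 had one below 0 there and 1457 passed. The 2 responses share no mice, but their tests share the estimate of spread of each cluster, and the arrays were normalized together. The 2 sets of calls are therefore not independent.

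Some lists stood off the line of equal responses, without any member passing. Over all clusters 5.1% had an unadjusted limma p under 0.05 for the difference. Of 21 ciliated cell genes 9 had an unadjusted p under 0.05 for the difference, and the median was -0.22 in the knockouts against -0.61 in Fra-1+/+. Of 24 collagen chains 8 did, with medians of 0.36 and 0.72, and of 16 regulatory T cell genes 5 did, with medians of 0.62 and 0.23. Of 9 MHC class II genes 4 did, with medians of opposite sign at 0.27 and -0.18. For B cells and plasma cells 2 of 24 did, with medians of -0.13 and -0.90. Ccr8 rose by 1.05 in the knockouts beside 0.17 (SE 0.15) in Fra-1+/+ lungs, at an unadjusted limma p of 0.0018 for the difference. Tnc rose by 2.34 beside 3.50, at an unadjusted limma p of 0.0052. Ngp lay at -0.38 beside 1.49, at an unadjusted limma p of 3.1e-04. The neutrophil list as a whole had a median of 0.27 beside 1.18, and 1 of its 19 members had an unadjusted p under 0.05. The neutrophil and B cell counts are near the share over all clusters. The neutrophil median over the KOC mean was 0.03 in KOT 80, against 0.47 in KOT 72 and 0.87 in KOT 81.

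**Figure D4:**
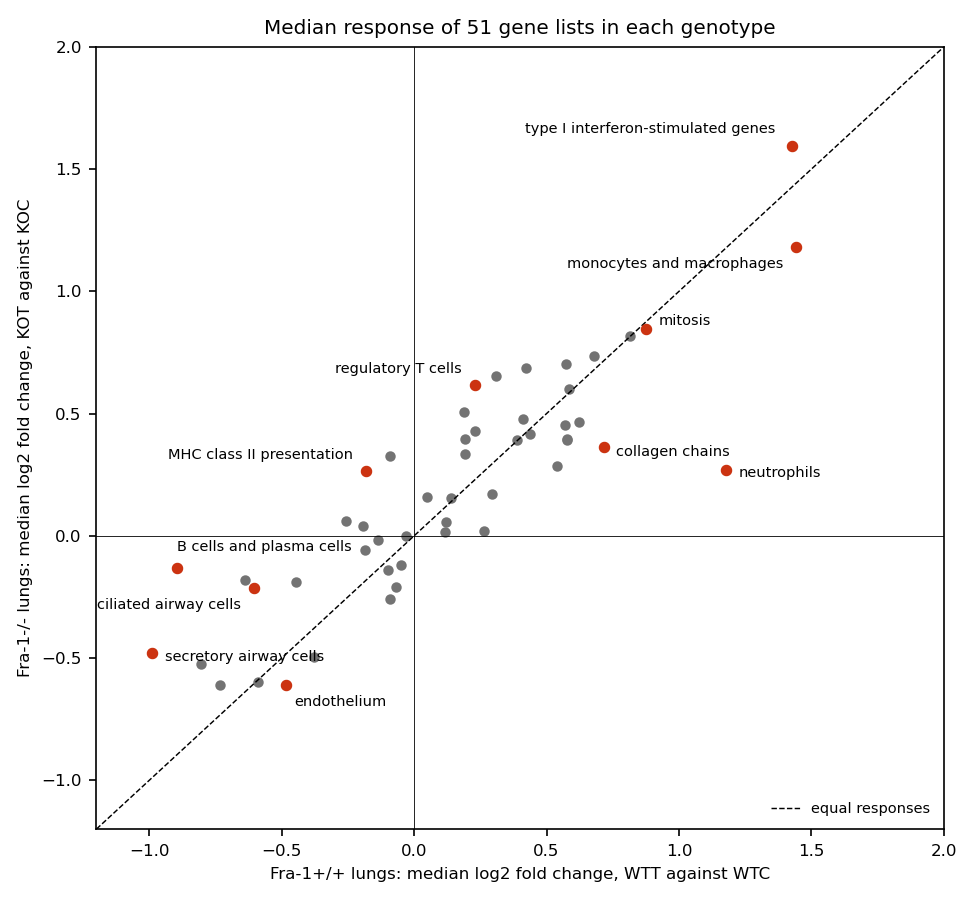
Median log2 fold change of each of 51 gene lists with bleomycin in Fra-1+/+ lungs (horizontal) and in Fra-1-/- lungs (vertical), 1 point per list, with a dashed line where the responses would be equal. Interferon-stimulated genes at 1.43 and 1.60 and mitosis at 0.88 and 0.85 lie near the line, and neutrophils at 1.18 and 0.27 lie farthest below it. No gene passed the test of the difference.

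The spread among the treated mice was wide for single genes. Among the 10 genes with the largest spread were Slfn4, at 10.51, 7.26 and 11.38 in KOT 72, 80 and 81 over 7.18 to 7.54 in KOC, and Ifi44l, at 10.28, 7.21 and 10.62 over 6.39 to 7.17. KOT 80 was at or next to the control level in both. Acod1, the itaconate enzyme of activated macrophages, lay at 8.29, 6.97 and 10.25. Cxcl2, a neutrophil chemokine, lay at 6.08, 5.20 and 7.98, so that KOT 80 was inside the KOC range of 5.10 to 5.25. BC018473 did not follow treatment, at 5.84, 5.89 and 10.69 in KOC and 10.20, 5.74 and 10.66 in KOT. None of these passed the test with all mice, and Slfn4 and Ifi44l passed without KOT 80, Ifi44l also without WTT 160.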

How the data were processed

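Left lung RNA of 12 mice was hybridised to Affymetrix MoGene 1.0ST arrays, 1 per mouse. The deposited values are log2 signals that the authors made with Affymetrix Power Tools (version not given in the sources used here) by quantile normalization over all samples and RMA median polish, so each array's value depends partly on the others. They were used unchanged. Groups were taken from the sample titles. limma 3.58.1 in R 4.3.3 was run once on the 12 arrays, taking the 4 group means as coefficients, for the 23410 transcript clusters with a gene symbol, with Benjamini-Hochberg adjustment over all of them and two-sided tests. The contrasts were KOT minus KOC, WTT minus WTC and their difference. With 3 mice against 3 an exact permutation test of 1 value cannot go below p = 0.1, and the number of arrays limits the precision.

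For gene lists each gene was read from its single-symbol cluster with the highest mean. Named genes were the 10 largest rises and falls that passed without overlap, up to 4 members of each list and direction with the smallest p, genes named or measured by the study, the AP-1 family, and the 10 with the largest SD among KOT mice. Abca17, Gm2411, Cldn34c4, Cldn34c1 and Bmp4 were named after their values were seen. The members and lists were chosen with earlier results of these data known. The local-pooled-error test of the study's methods was rebuilt as an alternative, on group medians with 100 intensity bins. The fit and this test were tested on simulated data. Other alternatives changed the threshold, arrays, weights, moderation, scaling, filter and clusters tested. The authors' detection filter was not used here. Nothing in the labels says that the mice were handled independently, so p-values measure the spread between these mice.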

Additional observations from a re-analysis of the deposited data

Results flagged for a closer look

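A signal appeared in clusters that the report does not use. In a fit to all clusters of the array, 284 of the 12146 clusters without a gene symbol were higher in KOT than in KOC and 137 were lower (2.34% and 1.13%). They have no gene name here and were not examined further.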

How the results depend on the processing

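No paired analysis was possible because the animal numbers differ between all groups. With a mean of at least 6 in KOC or KOT required, only the 6 knockout arrays, cyclic loess, trended and robust moderation or equal array medians, the counts of clusters higher and lower in KOT stayed within 1.5 times those reported. The local-pooled-error test at an adjusted p under 0.01 gave 1042 higher and 849 lower, of which 756 and 766 were called in the report. An adjusted p under 0.01 gave 743 and 831, and array weights 3481 and 3637. Leaving out 1 array at a time gave 908 to 1913 higher and 946 to 2145 lower, and 0 to 3 clusters passing the difference between genotypes. It passed for 0 in all other settings run. No cluster called in the report was called in the opposite direction under any of the 21 alternatives. Of 171 named genes 118 kept their direction and their side of the threshold in all of them. Calls lost numbered 16 by the local-pooled-error test, 25 at an adjusted p under 0.01, 7 with the 6 knockout arrays alone, 7 with all clusters of the array tested, 3 with equal array medians, 2 with trended and robust moderation and 1 with cyclic loess. Calls gained numbered 12 by the local-pooled-error test and 14 with array weights. The 12 were Hpse, Ccl19, Ccr4, Ciita, Clec4e, Gzma, Slfn4, Ifi44l, Acod1, Cxcl2, BC018473 and Jchain. By the local-pooled-error test adjusted p was 3.4e-06 for Hpse, 4.3e-07 for Ccl19 and 3.7e-04 for Ccr4. On the simulated data, where 200 of 23410 clusters were changed, that test made 134 false calls, against 7 by limma. There limma recovered 88% of the 2-fold changes and 65% of the 1.5-fold changes. The tests use different thresholds, and in the real arrays limma called 3604 clusters, many more than were changed there. The simulated counts therefore cannot decide whether the calls of Hpse, Ccl19 and Ccr4 are false. Jchain, which was not called, lay at -0.043 without KOC 55 (adjusted p = 0.98) and at 1.05 without KOC 67, the lowest and highest values with 1 array left out. The cause of these changes was not tested.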
